A study of Mus musculus with 2 samples.

Results

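The 37 genes described here encode lysosomal hydrolases, the proteins of the lysosomal lumen and membrane that work with them, and subunits of the proton pump that acidifies the lysosome. They were chosen by gene symbol for what they encode and not by a measured value, but with earlier results of these data known. Each symbol matched 1 of the 32285 genes counted in each library. They comprise 7 cysteine cathepsins, 4 other proteases, 5 glycosidases, 7 proteins of lipid handling, 6 membrane proteins, 2 secreted lysosomal glycoproteins and 6 proton pump genes.

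Immune cells were enriched by CD45 selection from mouse tumours and profiled by droplet single-cell RNA sequencing of transcript 3′ ends. One group was labelled Control and the other Motolimod-treated (motolimod is a small-molecule agonist of Toll-like receptor 8), with 5 mice and 1 library of about 30000 loaded cells in each. The labels do not say whether the 5 tumours were pooled, and the tumour model, strain, age, dose and time of treatment are not given in the sources used here. With 1 library per group the 2 libraries cannot be compared by a test: all intervals below cover counting error only, and a difference between libraries cannot be told apart from a difference between treatments.

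The lysosome is the compartment in which macrophages digest what they engulf. Most of its enzymes are made as inactive precursors, carry a mannose-6-phosphate tag to the lysosome and work only at the acid pH set by the vacuolar ATPase, a proton pump with a membrane sector and a cytosolic sector. Transcription factors of the MiT/TFE family (Tfeb, Tfe3, Mitf) bind E-boxes of the form CACGTG in the promoters of many lysosomal genes, and neutrophils, dendritic cells and osteoclasts each use their own selection of these enzymes.

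The E-box is shown in the promoters of the members that hold it because it is the sequence through which many lysosomal genes are jointly controlled. RefSeq promoters on GRCm38.p6, from 250 bases before to 50 bases after the annotated start, were at hand for 30 of the 37 members. CACGTG, searched on both strands, lay in that window in 8 of the 30 members (26.7%), against 8.09% of 27025 genes. The 27025 are all genes with such a promoter at hand, whether or not these cells express them. The longer forms TCACGTGA and GTCACGTG, which contain CACGTG and therefore overlap it, lay in 3 members (10%) against 1.12% of genes and in 6 members (20%) against 2.55% of genes. A stretch of each promoter is printed 5′ to 3′ on the strand of the gene, with the E-box in capitals. Ctsd, encoding the aspartic protease cathepsin D, has TCACGTGA on the minus strand at chr7:142387908-142387937 and a second core farther upstream that is not printed, and Lamp1, encoding an abundant lysosomal membrane glycoprotein, has 4 cores within 52 bases at chr8:13159100-13159151 on the plus strand. The others are Ctsa (chr2:164833749-164833772, plus), Naglu (chr11:101070009-101070038, plus), Lgmn (chr12:102439124-102439153, minus), Glb1 (chr9:114401018-114401047, plus), Atp6v1a (chr16:44139373-44139402, minus) and Ctsl (chr13:64370739-64370768, minus).
Ctsd: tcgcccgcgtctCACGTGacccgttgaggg
Lamp1: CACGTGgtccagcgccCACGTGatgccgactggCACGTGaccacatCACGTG
Ctsa: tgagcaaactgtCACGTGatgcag
Naglu: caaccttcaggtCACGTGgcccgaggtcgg
Lgmn: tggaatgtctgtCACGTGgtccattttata
Glb1: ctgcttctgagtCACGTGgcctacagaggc
Atp6v1a: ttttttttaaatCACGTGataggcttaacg
Ctsl: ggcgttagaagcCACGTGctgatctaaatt
A match describes these letters and not a bound site. The starts are those of RefSeq, and some windows, such as those of Ctsa and Lgmn, lie inside the gene in the GENCODE annotation.

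The Control library held 8099 barcodes with a median of 12868 unique molecular identifiers (UMIs, 1 per captured molecule), and the Motolimod library held 10037 with a median of 3369. Barcodes with fewer than 300 genes, fewer than 800 UMIs or more than 10% mitochondrial UMIs were dropped, which left 7484 in Control and 9314 in Motolimod, and 94 barcode sequences occurred in both libraries. Cells were gated on marker genes, none of them a member: 3864 Control and 3787 Motolimod macrophages, 638 and 747 monocytes, 309 and 110 dendritic cells, and 471 and 2528 neutrophils. A gate is a range of a score and not a sharply bounded type: 51 Control and 82 Motolimod macrophages lay within 0.05 of the cut, and 732 and 677 had a second macrophage state within 0.25 of the first. Median UMIs per macrophage differed between the libraries (15626 in Control, 6195 in Motolimod), whereas those per neutrophil were close (1863 and 2008). Levels are given in CPM, counts (UMIs) of a gene per 1000000 UMIs of all cells of a gate and library, and need no division by gene length because each molecule is counted once at its 3′ end. In the neutrophil gate the median cell had 0 UMIs of the 10 macrophage markers in either library. Their summed level there was 360 CPM in Control and 279 in Motolimod, against 17871 and 14819 in the macrophage gate. In the macrophage gate the 9 neutrophil markers summed to 163 in Control and 327 in Motolimod and the 7 monocyte markers to 643 and 1004, with medians over cells of 0 and 54.4 and of 236 and 764.

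Apart from the few osteoclast-like cells, the lysosomal genes took their largest share of UMIs in macrophages and monocytes. Summed over the 37 genes, the level in macrophages was 24107 CPM in Control (95% Poisson interval 24069 to 24146) and 25531 in Motolimod (25475 to 25587). Monocytes were at 21072 and 21039, dendritic cells at 12276 and 12529, neutrophils at 10589 and 13638, and T cells at 3403 and 3754. Within macrophages the order was led by the lipid-laden-like state marked by Gpnmb and Cd36 (30289 in Control, 33532 in Motolimod) and the perivascular-like state marked by Lyve1 (28536 and 32308). The cycling state was lowest in both libraries, at 20900 and 19732. The resident-like, Cd72 Vcam1 and Mmp12 states lay together in Control, at 26349, 26477 and 26391 with overlapping intervals. The spread between mice is unknown, and the cells of 1 gate varied widely. The summed level ran from 16035 to 33528 CPM between the 10th and 90th percentile of Control macrophages and from 16654 to 39841 in Motolimod. The macrophage level was 2.28 times the neutrophil level in Control and 1.87 times in Motolimod. Scaled by the median ratio over genes, which shifts the log2 ratio of macrophages to neutrophils by -0.45 in Control and -0.66 in Motolimod, the summed level was 1.67 and 1.18 times as high.

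**Figure D1:**
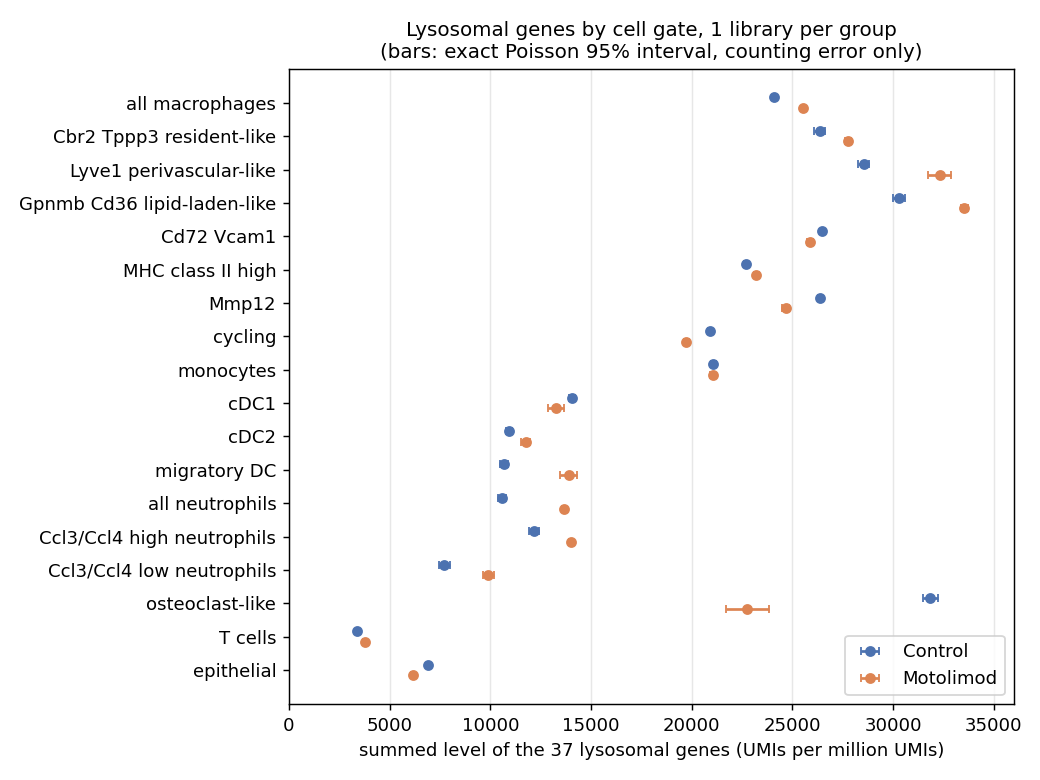
Summed level of the 37 lysosomal genes (x axis, CPM) in each cell gate (y axis) of the Control and the Motolimod library; points are the level and bars the exact Poisson 95% interval. The macrophage states lie between 19732 and 33532, the neutrophil gates between 7707 and 14008 and T cells at 3403 and 3754.

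Between the libraries, the summed level in macrophages was 1.06 times as high in Motolimod as in Control. The direction turned when each macrophage state was given the Control library's share of cells (0.994 times), and the states were present in different numbers: 96 lipid-laden-like cells in Control against 866 in Motolimod, 169 resident-like cells marked by Cbr2 and Tppp3 against 1022, and 865 cells marked by Cd72 and Vcam1 against 301. A member was called higher or lower at a difference of at least 1.5-fold, among genes with a mean of at least 10 CPM over the 2 libraries. Of the members, 35 passed that minimum in macrophages, all but Ctsk and Atp6v0d2. In Motolimod macrophages 4 of these 35 were called higher (11.4%), Ctsd, Lipa, Npc1 and Creg1, beside 8.14% of the 7335 genes tested. One, Cd63, was called lower (2.86%), beside 4.62% of all genes. Both shares lie near those of all genes, so the counts are not a result about lysosomal genes. With each state given its Control share, none of the 4 was called. The median log2 ratio of the members tested was 0.15, and that of all genes tested 0.04.

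**Figure D2:**
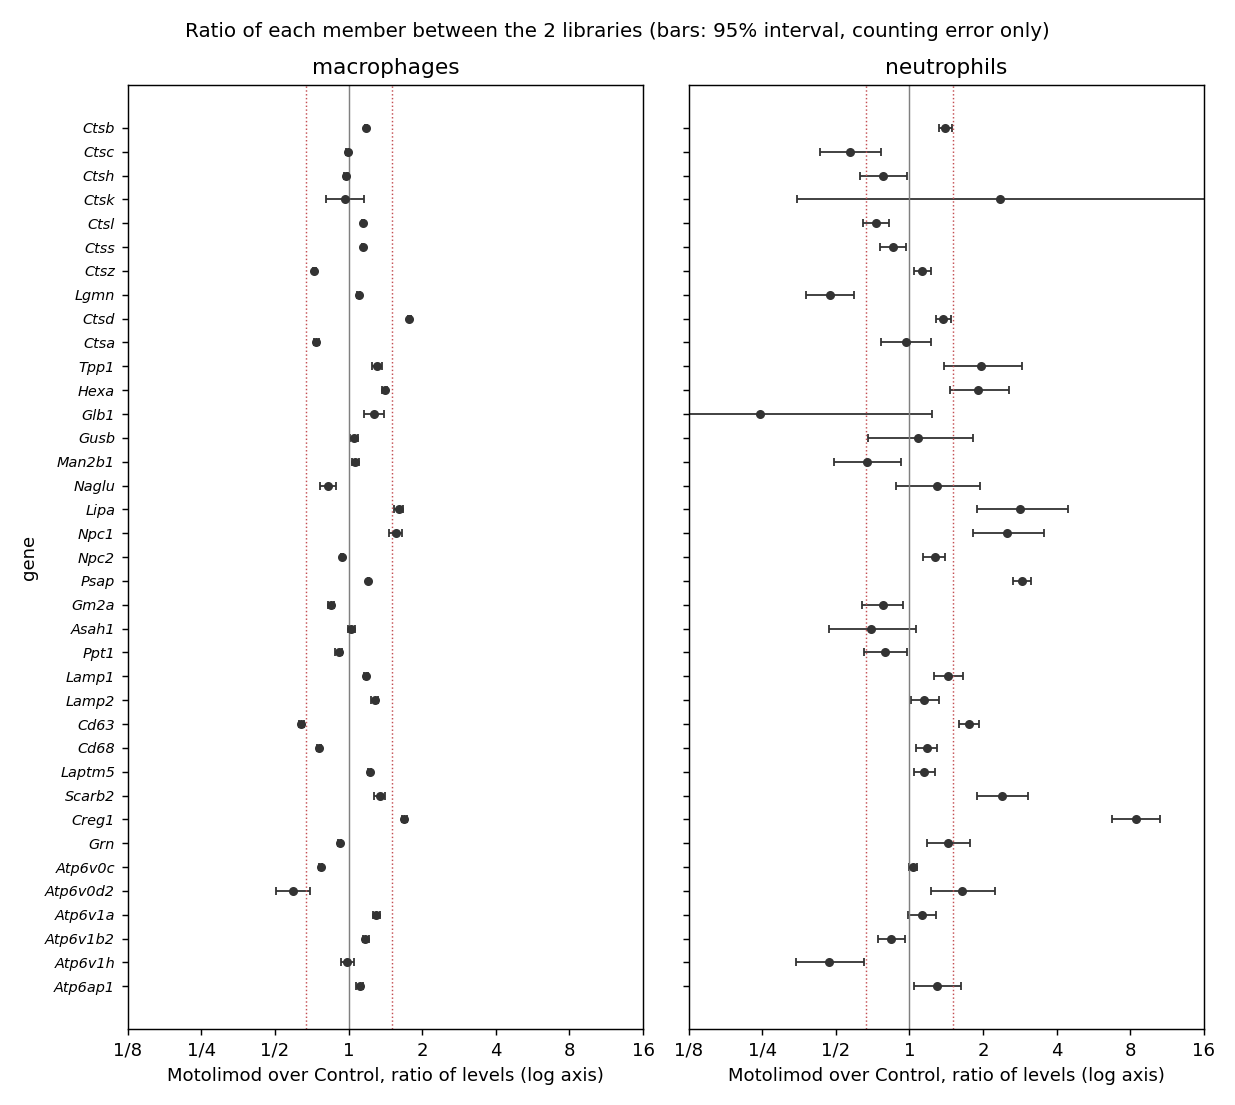
Ratio of the level in Motolimod to that in Control (x axis, log scale) for each member (y axis) in macrophages and in neutrophils; bars are 95% intervals from counting error, dotted lines mark 1.5-fold, and the neutrophil bars of Ctsk and Glb1 run past the axis. Ctsd (1.77) is the highest macrophage ratio, and Creg1 (8.41) the highest neutrophil ratio.

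Of the 7 cysteine cathepsins, endopeptidases and exopeptidases of the lysosomal lumen, all but Ctsk had their largest share of UMIs in macrophages. Such shares also reflect the number of cells in a gate. For Ctsl, cells gated as epithelial held 32.7% of the UMIs in Control and 8.90% in Motolimod, against 45.9% and 65.2% in macrophages. Ctsb, encoding cathepsin B, was at 2592 CPM in Control and 3067 in Motolimod macrophages, and at 1046 and 1462 in neutrophils. It was highest in the lipid-laden-like (4474 and 5033) and perivascular-like states (4275 and 4762) and lowest in the MHC class II high state in Control (1947) and the cycling state in Motolimod (1795). Ctss encodes the cathepsin that trims the invariant chain of MHC class II. Among macrophage states it was instead highest in MHC class II high cells in Control (2128), with Control monocytes at 2138. In Motolimod it was highest in the lipid-laden-like state (2534). Ctsl, encoding cathepsin L, was likewise high in lipid-laden-like cells, with 1854 and 1494 against 405 and 373 in the MHC class II high state. Ctsc, encoding the dipeptidyl peptidase that activates granule serine proteases, ran the other way, with 804 and 688 in the lipid-laden-like state against 1395 and 1889 in the MHC class II high state. In neutrophils Ctsc was at 59.8 and 34.1. T cells served as a comparison for shares of cells with a UMI. They are not a blank, with the members at a summed 3403 CPM in Control and 3754 in Motolimod, and the source of those UMIs was not tested. They had median depths of 5741 and 4661 UMIs, so cells were also compared at an equal depth of 1000 UMIs (thinned), without the shallower cells, 35 neutrophils and 30 macrophages in Control and 128 and 87 in Motolimod. After thinning, 2.52% and 1.79% of neutrophils had a Ctsc UMI, below the 5.67% and 8.70% of T cells (unthinned 7.22% and 4.55% against 40.9% and 30.7%). Ctsh, encoding an aminopeptidase, had its highest level in Motolimod migratory dendritic cells (1040, 33 cells), against 589 in the 103 Control cells. Ctsz, encoding a carboxypeptidase, was at 1185 in Control and 857 in Motolimod macrophages, 0.723 times as high and short of the 1.5-fold mark.

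Ctsk, encoding the collagenolytic cathepsin K by which osteoclasts dissolve bone matrix, was a gene of very few cells. Of its 8235 UMIs in the Control library, 84.8% lay in 42 cells gated on Acp5, Ocstamp, Dcstamp, Calcr and Itgb3 and called osteoclast-like here. Of 889 in Motolimod, 48.0% lay in 4 such cells. Its level in them was 7685 CPM in Control and 5552 in Motolimod, and 78.6% of the Control cells had a UMI. This gate was added once Ctsk levels were seen. The high level of Ctsk in it and the low level in macrophages therefore follow in part from that choice. In macrophages Ctsk was at 5.91 and 5.73, in neutrophils at 0.879 and 2.07, and T cells had 1 UMI in Control and 0 in Motolimod. Its macrophage ratio of Motolimod to Control was 0.969, and 0.173 without the osteoclast-like gate. Even within macrophages, 10 cells held 88.3% of the Control UMIs. The 223 UMIs that put Control MHC class II high macrophages at 18.4 came from no more than 10 cells. In the lipid-laden-like state Ctsk was at 3.50 in Control (4 UMIs) and 26.5 in Motolimod (126 UMIs, 45.2% of them in 10 cells), a ratio of 7.56 with an interval of 2.88 to 28.2.

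The genes used for the gate are high in these cells by choice, Acp5, encoding tartrate-resistant acid phosphatase, at 10174 in the 42 Control cells. Of osteoclast genes not used for it, Oscar, encoding an osteoclast receptor, was at 144 in them against 0.0641 in Control macrophages, and Nfatc1, encoding the transcription factor of osteoclast formation, at 692 against 26.9. Mmp9, a gelatinase gene that is also a neutrophil marker here, was at 5239 against 7.47. Calcr had 6 UMIs in 4 of the 42 cells. All 37 members passed the minimum in the comparison of this gate with macrophages. In both libraries 8 members were called higher than in macrophages (21.6%, beside 10.0% of 7308 genes), namely Ctsk, Glb1, Naglu, Gm2a, Cd63, Atp6v0c, Atp6v0d2 and Atp6v1b2. The call of Ctsk is not independent of the gate, which was added once Ctsk levels were seen. Another 13 were called lower (35.1%, beside 14.1%), cysteine cathepsins among them: Ctsb was at 849 and 481, Ctsc at 154 and 416 and Ctsl at 206 and 65.0. Under median-ratio scaling, which shifts the log2 ratio by -0.05 in Control and -0.47 in Motolimod, Naglu and Cd63 were no longer called higher. The Motolimod side of this comparison rests on 4 cells with 76904 UMIs.

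**Figure D3:**
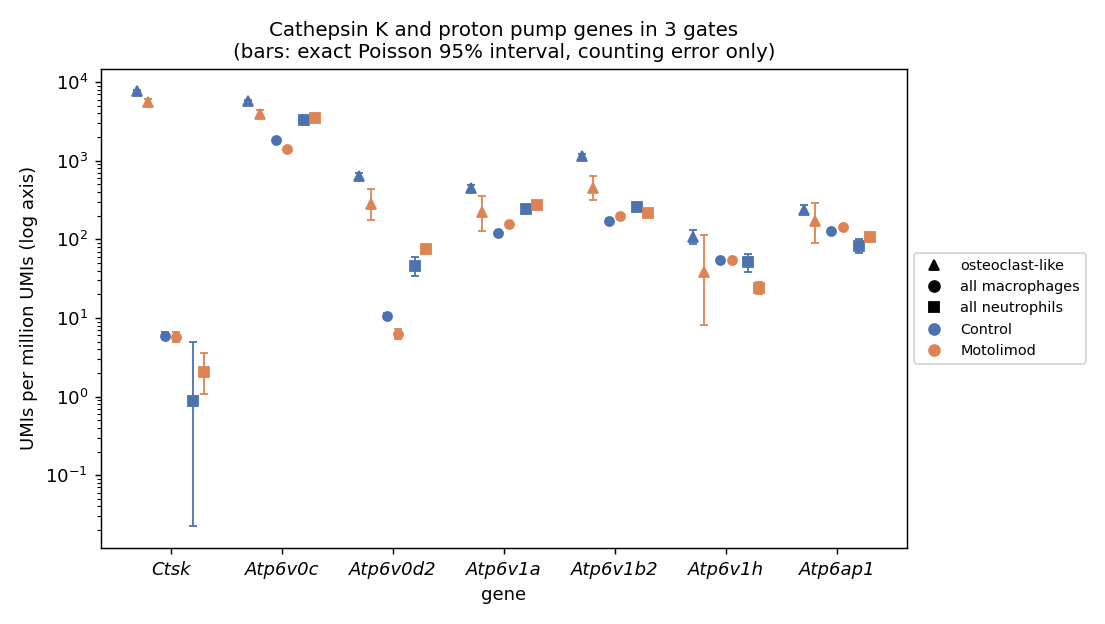
Level (y axis, CPM, log scale) of Ctsk and the 6 proton pump genes (x axis) in osteoclast-like cells, macrophages and neutrophils of each library; bars are exact Poisson 95% intervals. Ctsk is at 7685 and 5552 in osteoclast-like cells and under 10 in the other gates shown, and Atp6v0c is the most abundant pump gene in each gate and library.

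The other proteases held the member with the largest difference in macrophages. Ctsd was at 614 CPM in Control macrophages (interval 608 to 621) and 1090 in Motolimod (1078 to 1101), 1.77 times as high. After thinning, 42.1% of Control and 63.0% of Motolimod macrophages had a Ctsd UMI, against 26.7% and 27.3% of T cells (unthinned 92.9% and 93.1% against 68.8% and 70.0%). Between states the levels spanned a wider range than between libraries. Control cells were at 1922 in the perivascular-like and 1391 in the lipid-laden-like state, and at 365 in the MHC class II high state. Of the 7 states the ratio passed 1.5 in the lipid-laden-like state (1391 and 2198, ratio 1.58), as it did in macrophages without a state (602 and 1127). With the Control mix of states the macrophage ratio was 1.23, below the mark. Lgmn, encoding the asparaginyl endopeptidase legumain that activates other cathepsins, was at 1401 and 1537 in macrophages and 102 and 48.1 in neutrophils. After thinning, a Lgmn UMI was found in 5.73% and 3.25% of neutrophils and in 3.00% and 2.80% of T cells. Ctsa, encoding the protective protein of the galactosidase complex, was at 437 and 322 in macrophages, and Tpp1, encoding tripeptidyl peptidase, at 69.5 and 90.7. The 4 genes together were 1.21 times as high in Motolimod macrophages, and Ctsd made up most of that difference.

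The glycosidases, which strip sugars from glycoproteins, glycolipids and glycosaminoglycans, were low. The 5 genes summed to 636 and 751 CPM in macrophages. Hexa, encoding the alpha subunit of hexosaminidase A, was the most abundant, at 235 in Control and 331 in Motolimod macrophages, a ratio of 1.41. It passed the mark in lipid-laden-like cells (228 and 374, ratio 1.64) and in MHC class II high cells (189 and 287). Man2b1, an alpha-mannosidase gene, was at 204 and 217 in macrophages, and was higher in the cDC1 gate (262 and 356, with 94 and 19 cells). Gusb, encoding beta-glucuronidase, was at 143 and 150, Naglu, a heparan sulfate hydrolase gene, at 35.1 and 29.0, and Glb1, encoding beta-galactosidase, at 18.7 and 23.8. In neutrophils Gusb was found in 1.15% and 1.29% of thinned cells, below the 4.33% and 2.48% of T cells (unthinned 3.61% and 4.07% against 26.2% and 15.5%). Glb1 rested there on 4 and 5 UMIs, at 3.52 and 0.862.

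Lipid handling genes held the most abundant member. Psap, encoding the precursor of the saposins that present sphingolipids to their hydrolases, was at 3927 CPM in Control macrophages and 4728 in Motolimod, and at 5017 and 4672 in the cDC1 gate. Gm2a, encoding the activator of ganglioside GM2 breakdown, and Ppt1, a palmitoyl-protein thioesterase gene, were highest in the cDC1 gate. Gm2a was at 1172 and 1016 there against 254 and 215 in macrophages, and Ppt1 at 604 and 373 against 151 and 137. Npc2, encoding the soluble cholesterol carrier of the lysosome, was at 1475 and 1383 in macrophages and highest, apart from osteoclast-like cells, in lipid-laden-like cells in Control (2257) and migratory dendritic cells in Motolimod (2161). Npc1, encoding the membrane transporter that receives cholesterol from Npc2, was at 33.8 and 52.7 in macrophages, 1.56 times as high in Motolimod. Lipa, encoding the acid lipase that frees that cholesterol from its esters, was at 81.6 and 131, 1.60 times as high. Both calls were lost with the Control mix of states, at 1.34 for Npc1 and 1.31 for Lipa, and that for Npc1 also under median-ratio scaling. Lipa was highest in the lipid-laden-like state, at 163 and 227. Asah1, encoding acid ceramidase, was at 164 and 168 in macrophages.

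Of the membrane proteins, Cd63 was the macrophage member called lower. This tetraspanin of lysosomes and secretory granules was at 610 CPM in Control macrophages and 391 in Motolimod, 0.641 times as high (interval 0.629 to 0.655). The call was lost when cells were weighted equally. Cd63 was lower in Motolimod in all 7 macrophage states, and past the mark in 5 of them: resident-like (563 and 353), lipid-laden-like (793 and 494), MHC class II high (370 and 235), Mmp12 (785 and 422) and cycling (520 and 344). Epithelial cells, gated on Krt8, Krt18, Krt19, Epcam and Cdh1, held 36.3% of the Cd63 UMIs of the Control library and 14.9% of those of Motolimod, at 1265 and 1113 CPM. Their 5 markers summed to 31.9 and 10.4 in macrophages, with a median over cells of 0 in both libraries, and the part of epithelial RNA in the Cd63 difference was not tested. Cd68, the pan-macrophage sialomucin, was at 805 and 610, and past the mark in the lipid-laden-like state (1190 and 786). Lamp1 was at 638 and 752 and Lamp2, the other major membrane glycoprotein, at 151 and 193. Both were highest in perivascular-like cells, Lamp1 at 1361 and 1459 and Lamp2 at 306 and 383. Laptm5, a transmembrane protein of haematopoietic lysosomes, was found in T cells as well (572 and 833, against 737 and 900 in macrophages). Scarb2, encoding the receptor that carries beta-glucocerebrosidase to the lysosome, was at 52.1 and 69.7.

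The 2 secreted glycoproteins differed from each other. Grn, encoding progranulin, was at 1304 CPM in Control and 1197 in Motolimod macrophages and highest in the perivascular-like state (1970 and 1758). Creg1, encoding a small glycoprotein delivered to lysosomes, was at 186 and 315, 1.69 times as high in Motolimod. In Control it was highest in perivascular-like cells (384, and 478 in Motolimod), and in Motolimod in lipid-laden-like cells (634, and 275 in Control). With the Control mix of states its macrophage ratio was 1.33.

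In all macrophages together the 6 proton pump genes did not differ in 1 direction. Atp6v0c, which made up most of their sum, was lower in Motolimod, and the sum of the other 5 was not. All 6 summed to 2296 CPM in Control and 1951 in Motolimod macrophages, 0.850 times as high, and the ratio within states ran from 0.812 in cycling to 0.886 in Mmp12 cells. In monocytes they summed to 2713 and 1949, 0.718 times as high. Atp6v0c, encoding the proteolipid ring of the membrane sector, was at 1812 and 1392 in macrophages and 2166 and 1436 in monocytes. Without it the other 5 summed to 484 in Control and 559 in Motolimod macrophages, 1.15 times as high, with ratios from 0.931 in cycling to 1.26 in perivascular-like cells, and to 547 and 513 in monocytes. Atp6v1a (119 and 155), Atp6v1b2 (171 and 200) and Atp6ap1 (129 and 143) were higher in Motolimod macrophages and Atp6v1h was near even (54.8 and 54.2). The first 2 of these encode the catalytic and nucleotide-binding subunits of the cytosolic sector, Atp6ap1 an accessory subunit and Atp6v1h its regulatory subunit. Atp6v0d2, encoding the membrane-sector d subunit that osteoclasts use, was at 10.6 and 6.30 in macrophages and at 647 and 286 in osteoclast-like cells. Control lipid-laden-like (51.6) and Mmp12 cells (42.2) were the macrophage states above 10, and 79.7% of the 59 UMIs of the former came from 10 cells. In Motolimod these states were at 12.2 and 23.5.

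**Figure D4:**
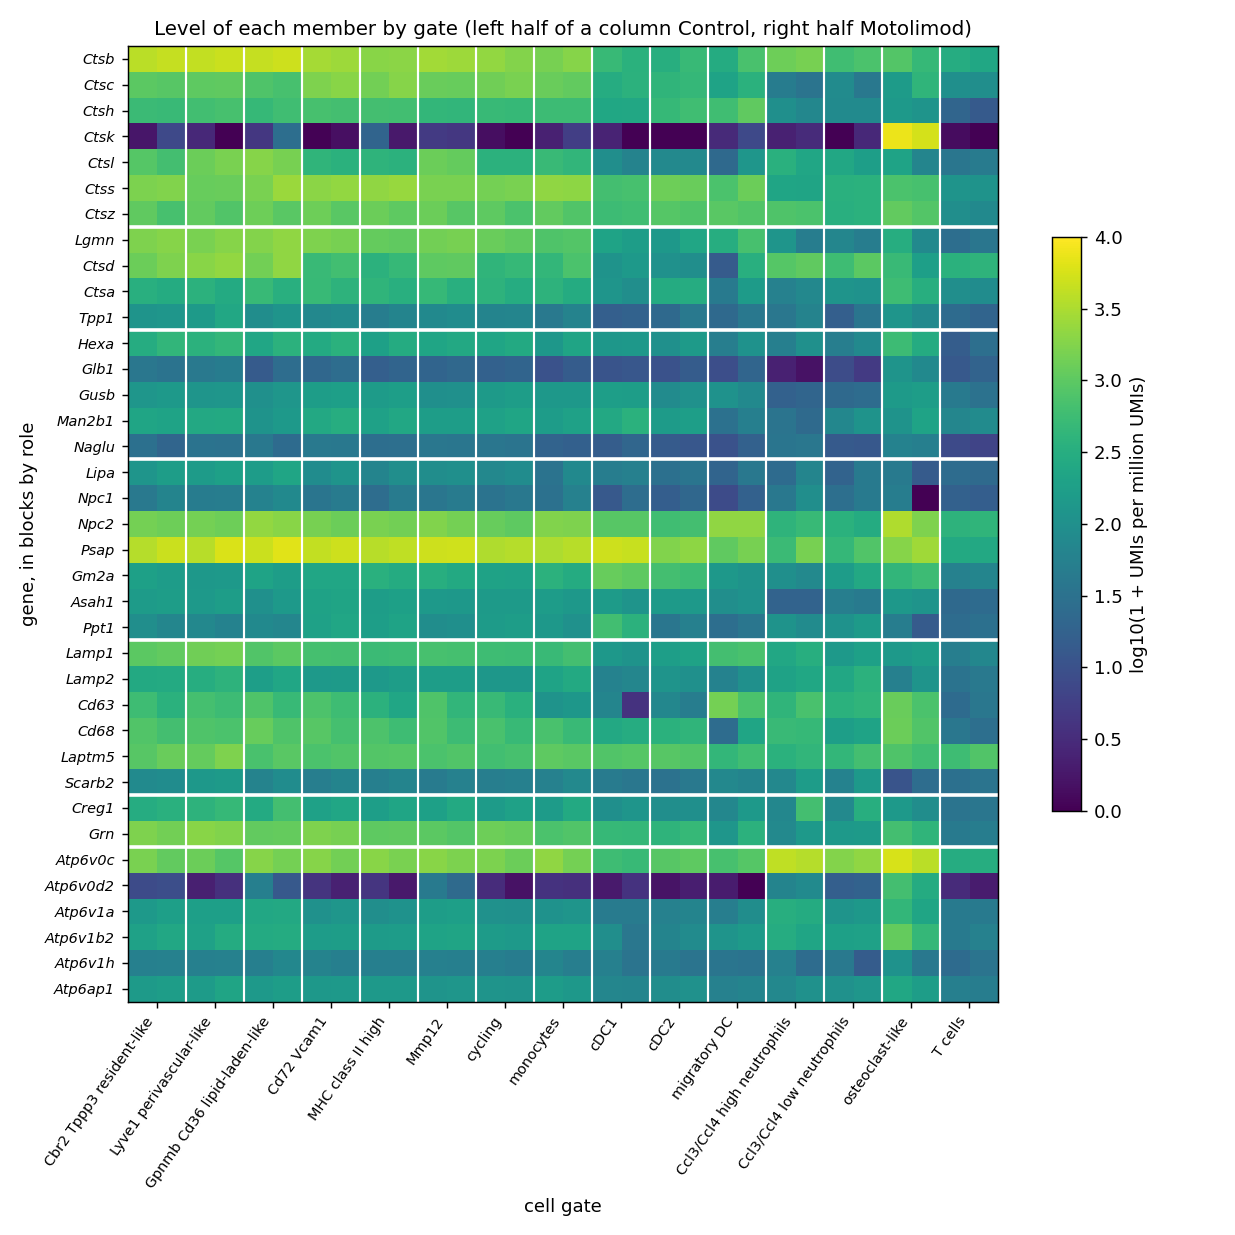
Level of each of the 37 members (y axis, in blocks by role) in each cell gate (x axis; left side of a column Control, right side Motolimod), as log10 of 1 plus CPM. Ctsk and Atp6v0d2 stand out in osteoclast-like cells, Gm2a and Ppt1 in cDC1, and Atp6v0c in neutrophils and osteoclast-like cells.

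Macrophages were next set against the other myeloid gates. In both libraries 20 of 36 members tested were at least 1.5-fold higher in macrophages than in neutrophils (55.6%), near the 51.3% of 6822 genes tested. The 3 called lower (8.33%, beside 16.6%) were pump genes: Atp6v0c was at 3344 CPM in Control and 3461 in Motolimod neutrophils, Atp6v1a at 246 and 275 and Atp6v0d2 at 45.7 and 75.0. Under median-ratio scaling 14 were called higher and 7 lower, the latter with Ctsd, Lamp2, Scarb2 and Atp6v1b2 added. Against dendritic cells 22 of 35 members tested were higher in macrophages in both libraries (62.9%, beside 13.9% of 7350 genes) and 1, Gm2a, was lower (2.86%, beside 9.33%). Against monocytes 7 of 35 were higher (20.0%, beside 8.24% of 7211 genes), namely Ctsb, Lgmn, Hexa, Glb1, Naglu, Lipa and Cd63, and none was lower, beside 7.56%. Hexa lost this call under median-ratio scaling.

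Within macrophages the lipid-laden-like and MHC class II high states were compared in both libraries. All 37 members passed the minimum, 13 were called higher in the lipid-laden-like state (35.1%, beside 6.13% of 7097 genes) and 4 lower (10.8%, beside 7.59%). The higher ones spanned every role but the glycosidases: Ctsb, Ctsl, Lgmn, Ctsd, Tpp1, Lipa, Npc1, Lamp1, Cd63, Creg1, Atp6v0d2, Atp6v1a and Atp6v1b2. The lower ones were Ctsc, Man2b1, Gm2a and Ppt1, the last at 78.8 and 66.4 against 176 and 208. The same counts were found under median-ratio scaling. The gate used Gpnmb, itself a lysosomal gene, and without it the summed level of the lipid-laden-like state was 30183 in Control and 32312 in Motolimod. The calls were not rerun without Gpnmb. The lipid-laden-like state had the highest summed level of the states, and the MHC class II high state was among the lowest. The count called higher is therefore not independent of the summed levels. Median UMIs per cell were 11134 and 4574 in the lipid-laden-like state and 13310 and 10722 in the MHC class II high state.

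Compared state by state between the libraries, members were called in shares mostly at or below those of all genes. In lipid-laden-like cells 6 of 37 were higher in Motolimod (16.2%, beside 22.4% of 7023 genes), Ctsk, Ctss, Ctsd, Hexa, Glb1 and Creg1, where Ctsk passed the minimum only through its Motolimod level. Monocyte markers summed to 629 and 1446 in this state and neutrophil markers to 93.6 and 502 (medians over cells 390 and 864, and 0 and 0), and their part in these calls was not tested. There 4 were lower (10.8%, beside 11.7%), Naglu, Cd63, Cd68 and Atp6v0d2. In resident-like cells 1 of 35 was higher (2.86%, beside 10.5%), Npc1, and 3 were lower (8.57%, beside 9.43%), Ctsz, Naglu and Cd63. In perivascular-like cells, with 232 and 93 cells, 2 were higher (5.71%, beside 20.0%), Tpp1 and Psap, and 0 lower, beside 12.1%. Psap was at 3684 and 5955 there. In MHC class II high cells 2 were higher (5.71%, beside 6.01%), Hexa and Npc1, and 1 lower (2.86%, beside 2.09%), Cd63.

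No member was called in Cd72 Vcam1 cells, beside 5.49% of genes higher and 2.39% lower. In Mmp12 cells 0 of 36 were higher, beside 6.31%, and 2 lower (5.56%, beside 3.41%), Cd63 and Atp6v0d2. In cycling cells 0 of 35 were higher, beside 4.97%, and 1 lower (2.86%, beside 2.25%), Cd63. In monocytes 5 of 35 were higher (14.3%, beside 10.4%) and 1 lower (2.86%, beside 5.86%). The higher ones were Ctsd (444 and 730), Hexa (128 and 219), Lipa (31.9 and 78.4), Npc1 (29.8 and 56.4) and Creg1 (157 and 264), and the lower one Atp6v0c. The monocyte gate held macrophage markers at a summed 3230 CPM in Control and 5041 in Motolimod, and their part in these differences was not tested. In dendritic cells 5 of 35 were higher (14.3%, beside 10.2%), Ctsh, Ctsd, Tpp1, Glb1 and Npc1, and 2 lower (5.71%, beside 5.43%), Ppt1 and Cd63. That gate joined 94 cDC1, 112 cDC2 and 103 migratory cells in Control with 19, 58 and 33 in Motolimod. Macrophage markers summed to 1215 in Control and 1842 in Motolimod in the dendritic gate and monocyte markers to 659 and 993, and their part in these calls was not tested. In cDC2 macrophage markers were at 829 and 1871. Within cDC2, the subset with at least 50 cells in each library, Ppt1 went the other way (36.6 and 54.8), Ctsd was at 103 and 93.7 and Cd63 at 70.7 and 48.0.

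In migratory dendritic cells macrophage markers moved with the lysosomal genes. The summed lysosomal level was 10692 CPM in 103 Control cells and 13897 in 33 Motolimod cells, with Ctsd at 13.3 and 338 and Cd68 at 24.5 and 227. Summed macrophage markers in the same cells were at 347 and 2356, with 9 and 10 of the 10 markers detected. Medians over cells of those markers were 0 and 80.1. Their part in the difference was not tested. Cd63, at 1452 in Control, and 728 in Motolimod, was higher in migratory dendritic cells than in any macrophage state of the same library.

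In neutrophils the summed level was 1.29 times as high in Motolimod as in Control (10589 and 13638, ratio interval 1.26 to 1.31), but the libraries' neutrophils lay in different clusters of cells, and the direction turned in one of them. Cluster 0 held 15 Control and 1353 Motolimod cells, cluster 5 held 273 and 790, and cluster 12 held 161 and 354. The summed level was 11762 and 10214 within cluster 5, 0.868 times as high in Motolimod, and 6624 and 8902 within cluster 12, 1.34 times as high. Of 35 members tested, 9 were called higher (25.7%, beside 24.7% of 5313 genes) and 3 lower (8.57%, beside 15.8%), so the shares called are near or below those of all genes. Creg1 had the largest ratio, with 81 UMIs in 471 Control cells (71.2 CPM, interval 56.6 to 88.5) and 3474 UMIs in 2528 Motolimod cells (599, interval 579 to 619), 8.41 times as high. It was 42.9 and 197 within cluster 5, a ratio of 4.60 (3.13 to 7.01), and 95.0 and 157 within cluster 12, a ratio of 1.65 (1.07 to 2.61). After thinning, 5.96% of Control and 28.8% of Motolimod neutrophils had a Creg1 UMI, against 3.67% and 3.11% of T cells (unthinned 13.4% and 39.6% against 21.9% and 15.8%). Psap was at 499 and 1441, and 40.4% of its Control UMIs lay in 10 cells. Its ratio was 2.89, against 2.02 within cluster 5 and 2.78 within cluster 12. Its thinned share was 25.2% and 48.7% of neutrophils, against 19.0% and 25.5% of T cells (unthinned 36.5% and 61.9% against 69.1% and 65.6%). Lipa was at 22.0 and 62.4, Npc1 at 35.2 and 88.3, Scarb2 at 67.7 and 161, Hexa at 51.9 and 99.3, Tpp1 at 29.9 and 58.6, Cd63 at 395 and 690 and Atp6v0d2 at 45.7 and 75.0.

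The 3 members called lower in Motolimod neutrophils were Ctsc, Lgmn and Atp6v1h. Of these, the share of thinned cells with a UMI exceeded that of T cells in both libraries for Lgmn, and in neither for Ctsc. Atp6v1h was at 51.0 and 24.0, in 3.44% and 1.96% of thinned neutrophils and 3.00% and 3.11% of T cells. The Control neutrophil gate held 1137345 UMIs in all, so 3 UMIs there amount to 2.64 CPM. The summed macrophage markers in the neutrophil gate, given above, were higher in Control than in Motolimod. Their part in the 3 lower calls was not tested.

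The neutrophils split into cells high in Ccl3 and Ccl4, 302 in Control and 2227 in Motolimod, and cells low in both, 169 and 301. The summed lysosomal level was higher in the high cells in both libraries, 12152 against 7707 in Control (1.58 times) and 14008 against 9895 in Motolimod (1.42 times). In both libraries 9 of 35 members tested were called higher in the high cells (25.7%, beside 6.55% of 5524 genes): Ctsb, Ctsz, Tpp1, Naglu, Lamp1, Cd68, Atp6v0c, Atp6v0d2 and Atp6v1a. Ctss, Man2b1, Gm2a and Asah1 were called lower (11.4%, beside 22.0%). Median-ratio scaling shifts the log2 ratio by 0.51 in Control and 0.39 in Motolimod, after which 17 members were called higher and 1, Asah1, lower. Atp6v0c was at 4164 in the high and 1830 in the low cells of Control, and at 3586 and 2194 in Motolimod. Between the libraries, Creg1 was higher in Motolimod in both kinds of neutrophil, 69.2 and 626 in the high cells and 75.0 and 322 in the low cells. Psap was as well, at 523 and 1504 and at 453 and 808. Atp6v0d2 was not past 1.5-fold in either (62.4 and 80.7 in the high cells), and Cd63 was so in the high cells alone (418 and 718, against 353 and 411).

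Other genes of lysosome biology, taken from 7 lists, were called in macrophages in 8 of 71 cases higher (11.3%, beside 8.14% of all genes) and in 1 lower (1.41%, beside 4.62%), near the shares of all genes. Of 20 other hydrolases tested, 3 were higher in Motolimod, Galc (11.8 and 25.2), Ids (10.1 and 18.3) and Idua (9.39 and 15.1, above the minimum only through Motolimod), and Acp5 was lower (196 and 105), with a list median log2 ratio of 0.08. Of 12 other proton pump subunits none was called, and Tcirg1, the a3 subunit gene, was at 141 and 178. Among 14 genes of the MiT/TFE factors and the lysosomal mTORC1 platform, Mitf (22.8 and 38.3) and Fnip2 (23.0 and 41.4) were higher, and Tfe3, at 32.4 and 48.1, lay just under the mark. Igf2r, encoding a mannose-6-phosphate receptor (12.3 and 24.8), was the 1 of 6 sorting genes called, Serpinb6a (84.9 and 132) the 1 of 3 cathepsin inhibitors tested and Gpnmb (23.3 and 83.1), also a gate marker, the 1 of 7 membrane proteins and transporters. None of 9 autophagy genes was called. The genes of these lists were not run with the Control mix of states, under which all 4 members called higher in macrophages lost that call.

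In neutrophils 18 of 57 genes of these lists were higher in Motolimod (31.6%, beside 24.7% of all genes) and 3 lower (5.26%, beside 15.8%). Of 7 cathepsin inhibitors 4 were higher, Cstb (2655 and 4129), Stfa1 (215 and 389), Stfa2 (37.8 and 82.9) and Stfa3 (3.52 and 42.8, above the minimum only through Motolimod), and Cst3 was lower (837 and 454). Of 9 autophagy genes 4 were higher, among them Sqstm1 (550 and 874), but the list's median log2 ratio was -0.05, and its most abundant members, Gabarap (2020 and 1733) and Map1lc3b (814 and 632), were at lower levels in Motolimod without being called. Of 14 genes of the MiT/TFE list 3 were higher, Tfe3, Mitf and Fnip2. Of the 8 members with an E-box, 1, Ctsd, was called higher in macrophages, beside 11.4% of the members tested and 8.14% of all genes. The other ratios ran from 0.737 for Ctsa to 1.30 for Atp6v1a. The count is too small to be a result about the E-box, and the part of this element was not tested.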

How the data were processed

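The 2 deposited UMI count matrices, 1 per library, were made with Cell Ranger 7.1.0 per the file headers, whereas the submitters' processing notes name version 5.0.1 and the build mm10. Whether intronic reads were counted is not given in the sources used here. The values are raw counts of UMIs per gene and barcode. Shared barcodes were not removed.

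Cells were gated by a relative marker score: the mean log(1 + counts per 10000) over a lineage's markers, divided by that of its 50 highest cells. A gate needed 3 markers with a UMI and a score of 0.20. Droplets with a lineage of another group at 0.25 or more (775 in Control, 923 in Motolimod) were left out, and no doublet caller was run. Macrophages, monocytes, dendritic cells and osteoclast-like cells formed the same group, as did T and NK cells, and epithelial cells and fibroblasts. Mixtures within a group, such as a macrophage with a dendritic cell or a monocyte, were therefore not removed. 390 and 726 cells had no gate. Macrophage states took the highest standardised score of at least 0.5. Neutrophils were split at 10 Ccl3 plus Ccl4 UMIs per 10000. These rules were set after seeing the data: earlier versions had no minimum score or a minimum of 0.25, and the osteoclast-like gate was added once Ctsk levels were seen.

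UMIs were summed per gate and library. Poisson and conditional binomial 95% intervals are exact. Gates under 50 cells in a library are given as values only, except the osteoclast-like gate. Its members were also called against macrophages, although it held 42 cells in Control and 4 in Motolimod. The named genes are all 37 members and, of the other lists, up to 4 genes with the largest ratio in macrophages. Additional genes of those lists named in neutrophils were chosen after their values were seen. Members and lists were chosen with earlier results of these data known. Alternatives were median-ratio scaling, thinning to 1000 UMIs, the mean over cells, stricter filters, mixed droplets kept, Leiden clusters (scanpy 1.11.5), other minimum levels, the Control mix of states, and, chosen after seeing the data, no osteoclast-like gate, other Ccl3/Ccl4 cuts and neutrophils within clusters. The calling step was tested on simulated counts. Python 3.11.15 and scipy 1.17.1 were used.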

Additional observations from a re-analysis of the deposited data

Results flagged for a closer look

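Atp6v0d2, the d subunit gene of the proton pump membrane sector, differed in opposite directions between cell types, with a ratio of Motolimod to Control of 1.64 in neutrophils and 0.236 in lipid-laden-like macrophages. As given above, most of its Control UMIs in the lipid-laden-like state came from 10 cells. Its difference in neutrophils was not past 1.5-fold in either the Ccl3/Ccl4 high or the low cells. The tetraspanin gene Cd63 had a ratio of 1.75 in neutrophils and 0.478 in dendritic cells. Lgmn, encoding legumain, had a ratio of 1.5 in dendritic cells and 0.472 in neutrophils. It was picked out after rounding, since the dendritic ratio lies just under 1.5-fold and was not called. Macrophage markers in the dendritic gate were at 1215 CPM in Control and 1842 in Motolimod. In the neutrophil gate they were higher in Control than in Motolimod. Their part in either Lgmn ratio was not tested. Each gene was picked out because, after rounding, it was at least 1.5-fold higher in Motolimod in some gate and at least 1.5-fold lower in another. Both gates needed a mean of at least 10 CPM and an interval that left out 1. The most extreme gate of each kind is given. The differences between cell types were not tested, as there is 1 library per group.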

How the results depend on the processing

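With 1 library per group no replicate could be left out and no test was made. No paired analysis was possible because each group has 1 library. Depth limits the low members of gates with few UMIs, such as the 4 osteoclast-like cells of Motolimod with 76904. The macrophage sum (1.06 times as high in Motolimod) became 1.02 under median-ratio scaling, which shifts log2 ratios by -0.06 in macrophages and -0.04 in neutrophils, 1.12 both thinned and as a mean over cells, 1.05 under the stricter filter, 1.06 with mixed droplets kept, 1.03 with Leiden clusters and 0.994 with the Control mix of states. The neutrophil sum (1.29) became 1.26 under median-ratio scaling, 1.32 thinned, 1.37 under the stricter filter, 1.11 with mixed droplets, 1.39 with Leiden clusters, 1.22 without the osteoclast-like gate and, also chosen after seeing the data, 0.868 within cluster 5 and 1.34 within cluster 12, so its direction turned in 1 cluster. The ratio of macrophages to neutrophils became, in Control (2.28), 1.67 under median-ratio scaling, 2.33 thinned, 2.34 as a mean over cells, 2.16 under the stricter filter and 1.87 with mixed droplets, and in Motolimod (1.87) 1.18, 1.97, 2.00, 1.66 and 1.80 in the same order and 1.69 with Leiden clusters. The count of members lower in macrophages (1) became 2 thinned, with no minimum level or without the osteoclast-like gate, 0 as a mean over cells and 3 with Leiden clusters, and that of members higher (4) became 0 with the Control mix of states and otherwise ran from 3 to 5. No member called in all macrophages changed direction under these alternatives, which were not run for members in the other gates or in single states, and the cause of these shifts was not tested. The ratio of neutrophils high to low in Ccl3 and Ccl4 was 1.76 in Control and 1.54 in Motolimod with the cut at 5 per 10000, and 1.51 and 1.25 at 20.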
